A study of Mus musculus with 31 samples.

Results

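Potassium channel genes were followed across a panel of recombinant inbred mouse strains. They were taken as the genes whose array probe carried a single symbol starting with Kcn, with 2 symbols of pseudogene, opposite-strand or overlapping transcripts left out. This gave 63 genes, measured by 71 probes, of 15096 named genes on arrays of 23040 spots. By channel class, 22 encode voltage-gated pore subunits, 12 inward rectifiers (Kcnj), 8 two-pore leak channels (Kcnk), 6 channels of the calcium-activated families and 15 auxiliary subunits.

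Potassium channels let potassium leave the cell along its gradient, which sets the resting potential, ends action potentials and limits how often a neuron fires. Voltage-gated channels open on depolarisation, inward rectifiers pass current best near rest and are tuned by G proteins, ATP or polyamines, two-pore channels give background leak, and calcium-activated channels shape the afterhyperpolarisation. Pore subunits assemble as tetramers, or as dimers in the two-pore family, often with auxiliary subunits that alter gating, surface delivery or position in the cell. Kcnj9, a G-protein gated inward rectifier subunit known as GIRK3, is known to be expressed at different levels in DBA/2J and C57BL/6J mice.

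The samples were 31 BXD/TyJ strains, which descend from C57BL/6J and DBA/2J parents and are each inbred for a mosaic of their alleles. For every strain, whole-brain RNA of 3 males aged 8 weeks was pooled, labelled with Alexa Fluor 647 and compared on 1 array with Alexa Fluor 555 labelled whole-brain RNA of C57BL/6J males of the same age, to which a spike-in mix was added. By its title the series asks how gene expression differs with genotype. No dyes were swapped, so an effect of dye on a probe does not cancel, and the C57BL/6J RNA stands for 1 control sample whose own spread is left out of every test. With 1 array of 1 pool per strain, strain and array cannot be told apart, p-values measure only the spread between these arrays, and the number of arrays limits the precision. The parental allele that each strain carries at a channel gene was not used here.

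Values are log ratios, read as log2 of strain over C57BL/6J. Neither the log base nor the direction is settled by the labels, so signs below are those of the log ratio, and all would turn in the other direction. In whole tissue, fewer cells of a type and less RNA per cell cannot be told apart. Intensities were not used here, so a marker can be compared between arrays but its level, or a level of 0, cannot be read.

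The arrays stood apart in groups that no label explains. On the first principal component of all features (28.7% of variance) 7 arrays stood apart, those of BXD38, BXD36, BXD28, BXD23, BXD20, BXD8 and BXD6, and on the second (11.9%) the 8 of BXD42, BXD40, BXD39, BXD34, BXD33, BXD27, BXD22 and BXD15. They are called the 7 arrays, the 8 arrays and, for the remaining strains, the other 16. Of 5 oligodendrocyte markers, 4 were measured, and their median log ratio per array was 0.35 to 0.94 on the 7 arrays, 0.18 to 0.52 on the 8 arrays and −0.03 to 0.43 on the other 16. The median of 4 endothelial markers was −0.00 to 0.26 on the 7 arrays, 0.24 to 0.82 on the 8 and 0.22 to 0.67 on the other 16. The median of 4 neuron markers was −0.42 to 0.01 on the 7 arrays, −0.09 to 0.23 on the 8 and −0.08 to 0.35 on the other 16. Single markers differed within these lists, with means given here in the order 7, 8 and other 16 arrays. Mog, Cnp and Mal were highest on the 7 arrays, but Mbp had −0.01, 0.02 and 0.07. Pecam1, Kdr and Tek were lowest on the 7 arrays, but Cldn5 had 0.72, 0.26 and 0.58. Snap25, Syt1 and Tubb3 were lowest on the 7 arrays, but Nefl had −0.04, −0.26 and −0.05. Of 5 pituitary markers the median reached 2.19 on BXD6 and at most 0.33 on any array of the other 16. A spot's place in runs of 8 by probe number also went with its value: of 1689 named genes measured only at the eighth place, 79.7% were negative and 7.05% positive, against 27.5% negative and 46.7% positive of 13187 named genes with no probe there. The part of these array groups and places in the results below was not tested. Group means are given beside the channel genes whose sign differed between groups, and counts with and without the eighth place beside the totals.

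Averaged over the 31 strains, 46 of the 63 potassium channel genes (73.0%) differed from a log ratio of 0 by limma's moderated test with Benjamini-Hochberg adjustment over all 21262 features. Of all features 76.1% were called, so the channel genes were called about as often as any feature. Of the channel genes 19 were positive and 27 negative, against 42.1% positive and 33.9% negative among all features. When the mean had to exceed 1.2-fold, 26 channel genes passed, 7 positive and 19 negative, against 27.9% of all features, 12.4% positive and 15.6% negative. The median of the 63 means was −0.04, against 0.03 over all named genes.

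The channel genes with a probe at the eighth place were Kcna4, Kcna5, Kcna6, Kcng4, Kcnq1, Kcnj1, Kcnj4, Kcnj11, Kcnk16, Kcnn4, Kcne3 and Kcnmb1, and each of these 12 was negative and passed the test. Among the remaining 51 channel genes, 19 were positive, 15 negative and 17 did not pass, with a median mean of 0.05, against 0.07 for named genes with no probe there. Of these 51 genes 16 passed beyond 1.2-fold (31.4%), against 21.5% of the named genes with no probe at that place. The share of negative channel genes was thus 42.9% with the 12 genes, beside 33.9% of all features. Without them it was 29.4%, beside 27.5% of named genes with no probe at that place.

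**Figure D1:**
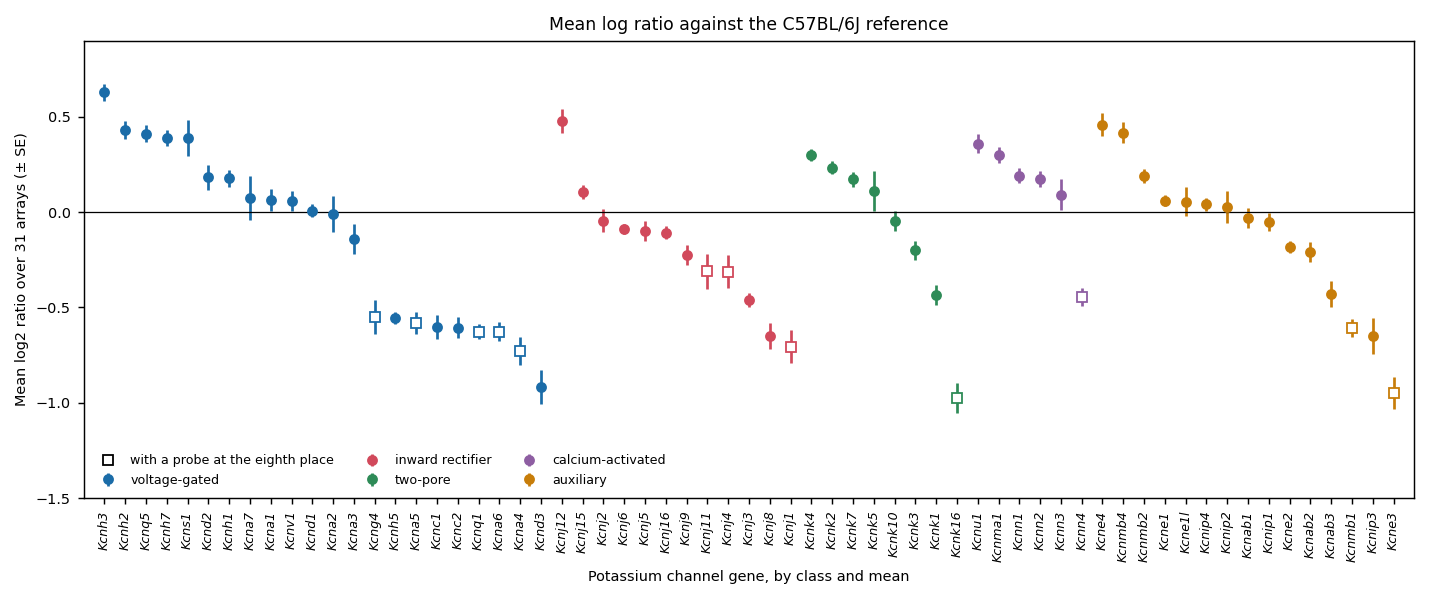
Mean log2 ratio against the C57BL/6J reference for each of the 63 potassium channel genes, grouped by channel class and ordered by mean; points are means and bars standard errors over 31 arrays. Open squares mark the 12 genes with a probe at the eighth place, all of which lie below 0, and filled points reach from −0.92 for Kcnd3 to 0.63 for Kcnh3.

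Among the 22 voltage-gated genes, 7 were positive and 9 negative (72.7% called, beside 76.1% of all features). Beyond 1.2-fold 13 passed, 4 positive and 9 negative (59.1%, beside 27.9% of all features). The 5 genes with a probe at the eighth place were all negative beyond 1.2-fold. Of the other 17 genes 7 were positive (41.2%) and 4 negative (23.5%), beside 46.7% and 27.5% of named genes with no probe there. Among these 17 genes 8 passed beyond 1.2-fold (47.1%, beside 21.5% of those named genes). The positive ones were led by the ether-à-go-go family. Kcnh3, a forebrain channel of this family, had log ratios between 0.11 in BXD8 and 1.29 in BXD5 with a median of 0.62. Averaged over its 2 probes, it was the only channel gene above 0 on all 31 arrays, and its mean was 0.63 ± 0.05 (SE, n = 31, limma adjusted p = 3.21e-14). Its probe 20689 was above 0 on all 31 arrays, but probe 17586 on 29, with a lowest value of −0.19. Kcnh2, the ERG channel that in humans is linked to long QT syndrome, ranged from −0.28 in BXD36 over a median of 0.39 to 1.14 in BXD40 and was above 0 on 30 arrays. Its mean was 0.43 ± 0.05 (limma adjusted p = 6.94e-10). Its relative Kcnh7 averaged 0.39 ± 0.04 and was above 0 on 29 arrays. Kcnh1 averaged 0.18 ± 0.04, and its highest value, 1.18 in BXD36, stood well above the next at 0.49 in BXD6. These 4 genes of the family were positive, whereas Kcnh5, which can assemble with Kcnh1, was negative on every array, between −1.09 in BXD28 and −0.23 in BXD38 with a median of −0.54.

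The M-current gene Kcnq5, whose channel is closed by muscarinic receptors, had a mean of 0.41 ± 0.05 and was above 0 on 28 arrays. Kcnq1, best known from heart and inner ear, had a mean of −0.63 ± 0.04 over its 3 probes, but these did not go the same way. The probe at the eighth place averaged −1.75 ± 0.10, and the other probes averaged 0.10 ± 0.04 and −0.23 ± 0.03. The sign of Kcnq1 therefore changes with the probe chosen. Kcns1, a modulatory subunit that forms no channel alone, averaged 0.39 ± 0.09 and was above 0 on 27 arrays. One array stood far from the rest in this gene, BXD11 at 2.65, with BXD31 next at 0.64.

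The A-type pore genes did not share a sign. Kcnd3, which inactivates fast in heart and brain, had the lowest mean of the voltage-gated genes, −0.92 ± 0.09 (SE, n = 31, limma adjusted p = 4.18e-11). Its values went from −1.58 in BXD5 over a median of −1.04 to 0.82 in BXD32, and only BXD32 and BXD36, at 0.10, were above 0. Kcnd2, which carries much of the A-type current of hippocampal dendrites, averaged 0.18 ± 0.07 (adjusted p = 0.0132) and was above 0 on 24 arrays. Its lowest array, BXD23 at −1.43, lay 1.11 below the next, BXD24 at −0.32. Kcnd1, the third A-type pore gene, averaged 0.01 ± 0.04 over its 2 probes and did not pass the test. Tested singly, these probes passed with opposite signs. Probe 7636 averaged 0.19 ± 0.04 (limma adjusted p = 0.000125) and probe 22614 −0.17 ± 0.05 (adjusted p = 0.00221).

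Kcnc1 and Kcnc2, the channels that allow fast spiking of interneurons, behaved alike on average. Kcnc1 ranged from −1.08 in BXD42 over a median of −0.65 to 0.54 in BXD32, with a mean of −0.60 ± 0.06 (limma adjusted p = 1.59e-10). Kcnc2 ranged from −1.17 in BXD20 over a median of −0.70 to 0.12 in BXD32, with a mean of −0.61 ± 0.06. In both genes BXD32 was the only array above 0. The Shaker genes Kcna4, Kcna5 and Kcna6 and the silent modulatory subunit gene Kcng4 were negative as well, with means of −0.73, −0.58, −0.63 and −0.55, and all lie at the eighth place.

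The axonal Shaker channels gave no shared shift. Kcna1, the delayed rectifier of juxtaparanodes, averaged 0.07 ± 0.06 (limma adjusted p = 0.296), Kcna2 averaged −0.01 ± 0.09 (adjusted p = 0.924), and Kcna3, the Shaker channel also known from lymphocytes, averaged −0.14 ± 0.08 (adjusted p = 0.101). Kcna2 and Kcna3 spread widely between arrays, with an SD above that of 95.0% and 89.2% of named genes, against 68.7% for Kcna1. Kcna2 went from −0.97 in BXD34 to 1.04 in BXD12, and Kcna3 from −0.87 in BXD5 to 0.84 in BXD19. Within the array groups both Kcna1 and Kcna2 passed with opposite signs. Kcna1 had a mean of 0.48 on the 7 arrays (limma adjusted p = 0.00069), 0.07 on the 8 arrays and −0.12 on the other 16 (adjusted p = 0.0258). Kcna2 had −0.32 on the 7 arrays (limma adjusted p = 0.0398), −0.55 on the 8 arrays (adjusted p = 1.43e-05) and 0.40 on the other 16 (adjusted p = 0.00118). Kcna3 had 0.02 on the 7 arrays, −0.55 on the 8 arrays (limma adjusted p = 3.36e-06) and −0.01 on the other 16.

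Kcna7, known mainly from muscle, averaged 0.07 ± 0.12 over all arrays. Its group means were −0.68 on the 7 arrays (limma adjusted p = 1.31e-05), −0.12 on the 8 arrays and 0.50 on the other 16 (adjusted p = 0.00325). The silent subunit Kcnv1, which modifies other channels, averaged 0.06 ± 0.05. Neither passed over the 31 arrays, and Kcnv1 was −0.29 on the 7 arrays, −0.01 on the 8 arrays and 0.24 on the other 16 (limma adjusted p = 5.58e-05).

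Kcna2 and Kcna3 lie 3 places apart on chromosome 3 and are the pair of neighbours whose log ratios moved together (values below), so the 250 bases before each RefSeq gene start are shown. They are given 5′ to 3′ on the plus strand of GRCm38.p6 from chr3:107101317-107101566 for Kcna2 and chr3:107035912-107036161 for Kcna3, with capitals for the GC box GGGCGG searched on both strands.
Kcna2: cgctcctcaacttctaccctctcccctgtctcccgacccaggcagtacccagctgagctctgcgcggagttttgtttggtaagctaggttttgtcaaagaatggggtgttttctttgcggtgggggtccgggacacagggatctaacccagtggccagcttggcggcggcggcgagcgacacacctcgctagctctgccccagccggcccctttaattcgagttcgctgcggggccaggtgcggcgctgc
Kcna3: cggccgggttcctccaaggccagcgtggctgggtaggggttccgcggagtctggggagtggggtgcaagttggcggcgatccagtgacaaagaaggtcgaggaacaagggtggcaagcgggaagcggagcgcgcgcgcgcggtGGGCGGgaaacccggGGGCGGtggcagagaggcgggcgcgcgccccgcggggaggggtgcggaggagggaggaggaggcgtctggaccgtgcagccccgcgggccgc
The Kcna3 stretch held 2 GC boxes and 74.4% G and C, and the Kcna2 stretch held none and 62.4%. A RefSeq promoter was matched for 52 of the 63 channel genes. Of these, 25 (48.1%) held a GC box, against 32.9% of 27025 mouse promoters of the same length, and their median G and C content was 58.8%, against 52.0%. The motif TATAAA, searched on both strands, was in 1 channel promoter (1.92%), against 13.0% of all. A match describes the letters only.

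Of the 12 inward rectifier genes, 2 were positive and 8 negative (83.3% called, beside 76.1% of all features). Beyond 1.2-fold 1 positive and 3 negative passed (33.3%, beside 27.9% of all features). The 3 genes at the eighth place, Kcnj1, Kcnj4 and Kcnj11, were negative. Of the other 9 genes 2 were positive (22.2%) and 5 negative (55.6%), beside 46.7% and 27.5% of named genes with no probe there. Kcnj12, a strong inward rectifier, had a range of −0.12 in BXD12 to 1.36 in BXD24 with a median of 0.44. It was above 0 on 30 arrays and averaged 0.48 ± 0.06 (SE, n = 31, limma adjusted p = 2.27e-08). Its partner Kcnj2, the classical strong rectifier, averaged −0.04 ± 0.06 and did not pass over all arrays, but was 0.27 on the 8 arrays (limma adjusted p = 0.000343) and −0.25 on the other 16 (adjusted p = 0.000517). Kcnj15 averaged 0.11 ± 0.04 (adjusted p = 0.00717) and was above 0 on 20 arrays, while Kcnj16, which assembles with the glial channel gene Kcnj10, averaged −0.11 ± 0.03 and was above 0 on 5. Kcnj10 was not analysed here.

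The ATP-sensitive pore genes were both negative. Kcnj8, the vascular and pericyte subunit, ranged from −1.11 in BXD19 over a median of −0.79 to 0.25 in BXD38, with a mean of −0.65 ± 0.07 (limma adjusted p = 4.25e-10). It was −0.30 to 0.25 on the 7 arrays and −1.11 to −0.35 on the other 16, without overlap. Kcnj11, the neuronal and beta-cell subunit, averaged −0.31 ± 0.09 (adjusted p = 0.00306) and spread from −1.10 in BXD32 to 1.52 in BXD36. Kcnj1, the renal outer medullary channel, averaged −0.70 ± 0.08, and Kcnj4, a strong rectifier of forebrain neurons, averaged −0.31 ± 0.09. Kcnj4 was positive on the 7 arrays, with a mean of 0.27 (limma adjusted p = 0.0238), and negative on the 8 arrays at −0.15 (adjusted p = 0.00235) and on the other 16 at −0.64 (adjusted p = 2.23e-05). Kcnj11 had means of 0.33 on the 7 arrays, −0.20 on the 8 arrays and −0.64 on the other 16.

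The G-protein gated subunits, which open when receptors such as GABA-B release G-protein beta-gamma dimers, include Kcnj9. It lies on chromosome 1, and the 250 bases before its RefSeq start (GRCm38.p6, chr1:172329323-172329572, minus strand, 5′ to 3′) are shown because it was the channel promoter with a TATAAA, here in capitals.
Kcnj9: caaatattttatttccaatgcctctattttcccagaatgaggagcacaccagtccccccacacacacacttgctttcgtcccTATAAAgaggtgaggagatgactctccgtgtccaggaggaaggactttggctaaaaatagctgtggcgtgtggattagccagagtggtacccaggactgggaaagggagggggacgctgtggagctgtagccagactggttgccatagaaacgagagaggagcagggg
On the arrays Kcnj9 went from −0.82 in BXD32 over a median of −0.26 to 0.43 in BXD28. It was below 0 on 24 of 31 arrays, with its mean at −0.22 ± 0.05 (limma adjusted p = 0.000191, n = 31), but did not pass beyond 1.2-fold. Kcnj9 was −0.04 to 0.43 on the 7 arrays, −0.67 to 0.00 on the 8 arrays and −0.82 to −0.06 on the other 16, and the 7 did not overlap the other 16. Tested within the groups by limma over all features, its mean was 0.17 on the 7 arrays (adjusted p = 0.0748), −0.38 on the 8 arrays (adjusted p = 0.000932) and −0.32 on the other 16 (adjusted p = 5.15e-06). In these groups 47.9% of all features passed on the 7 arrays, 74.8% on the 8 arrays and 76.1% on the other 16. Medians of several marker lists also differed between these arrays. For oligodendrocyte markers the median was 0.35 to 0.94 on the 7 arrays and −0.03 to 0.43 on the other 16. For neuron markers it was −0.42 to 0.01 and −0.08 to 0.35, and for endothelial markers −0.00 to 0.26 and 0.22 to 0.67. Single markers in each list went otherwise, as given above, and the part of these markers in the result was not tested.

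Gaps between the ordered strains describe whether Kcnj9 fell into separate levels. Its largest gap over the 31 arrays was 0.16 and lay between the 3 lowest arrays and the other 28. Within the other 16 arrays the largest gap was 0.32, between BXD32 and the remaining 15, and within the 8 arrays it was 0.26, with 1 array above it. Within the 7 arrays the largest gap was 0.16, between 0.12 and 0.28, and divided 4 arrays from 3. The 9 measured genes within 10 places of Kcnj9 were correlated with it over the other 16 arrays, and none passed after adjustment or at an unadjusted permutation p under 0.05, with r from −0.27 for Igsf8 to 0.35 for Tagln2.

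The remaining G-protein gated subunits differed among themselves. Kcnj3, the GIRK1 subunit of most brain channels, was the lowest of the 4, from −0.81 in BXD11 over a median of −0.46 to 0.06 in BXD36. BXD36 was its only array above 0, and its mean was −0.46 ± 0.04 (limma adjusted p = 5.53e-13). Kcnj6, the GIRK2 subunit, averaged −0.09 ± 0.03 over 3 probes (adjusted p = 0.0031), with probe means of −0.06, −0.24 and 0.04. Kcnj5, the GIRK4 subunit of the heart, averaged −0.10 ± 0.05 (adjusted p = 0.102) but was 0.05 to 0.54 on the 7 arrays (mean 0.38, limma adjusted p = 0.00236) and −0.48 to −0.05 on the other 16 (mean −0.31, adjusted p = 2.48e-07). Kcnj3, Kcnj5 and Kcnj9 had their highest median on the 7 arrays, at −0.22, 0.44 and 0.12. The Kcnj6 average over probes had medians of −0.12 on the 7 arrays, −0.16 on the 8 arrays and −0.03 on the other 16. The Kcnj6 probes did not share this order. Probe 18881 had means of −0.31 on the 7 arrays, −0.32 on the 8 arrays and 0.36 on the other 16. In the same order probe 9174 had 0.10, −0.26 and −0.38, and probe 4375 had −0.05, 0.05 and −0.12. The place of Kcnj6 beside the other subunits therefore changes with the probe chosen.

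**Figure D2:**
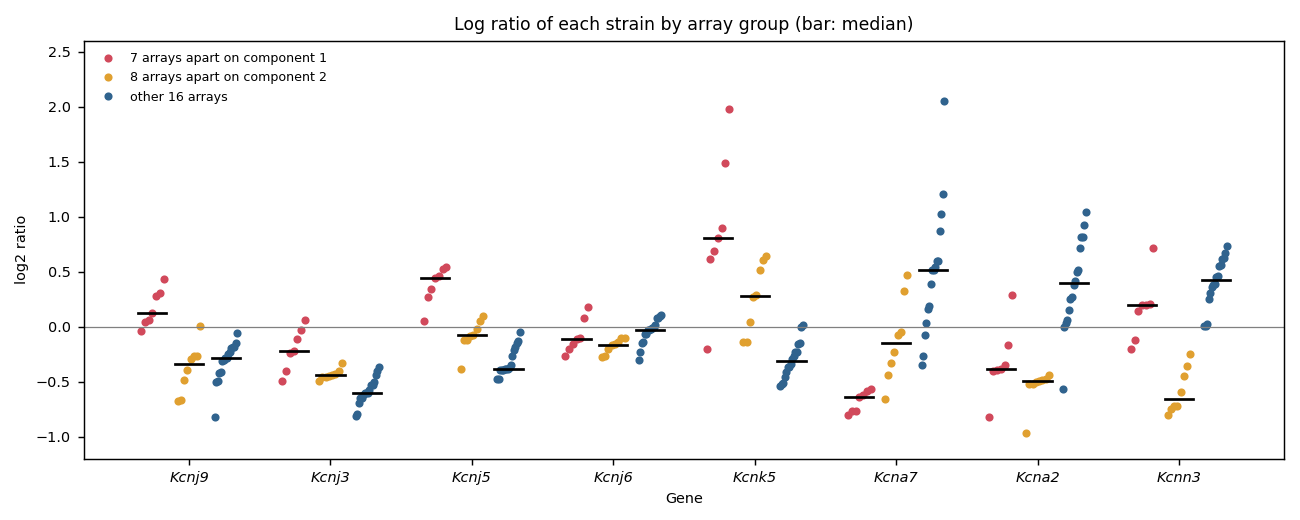
Log2 ratio of each strain for 8 potassium channel genes, with the 7 arrays apart on component 1 at the left of each gene, then the 8 arrays apart on component 2, then the other 16; dots are single arrays and bars group medians. Kcnj9, Kcnj5 and Kcna7 show no overlap between the 7 and the other 16, and Kcnn3 shows none between the 8 and the other 16.

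Among the 8 two-pore genes 3 were positive and 3 negative (75.0% called, beside 76.1% of all features). Beyond 1.2-fold 2 negative genes passed (25.0%, beside 27.9% of all features). Kcnk16 has its probe at the eighth place. Of the other 7 genes 3 were positive (42.9%) and 2 negative (28.6%), beside 46.7% and 27.5% of named genes with no probe there. Kcnk4, the mechanosensitive and thermosensitive TRAAK channel, had values from −0.15 in BXD16 over a median of 0.31 to 0.63 in BXD5. It was above 0 on 30 arrays, averaged 0.30 ± 0.03 (n = 31, limma adjusted p = 1.44e-10) and had means of 0.31 and 0.29 at its probes, which were designed on the same transcript. Kcnk2, the related TREK-1 channel, averaged 0.23 ± 0.03 and was above 0 on 28 arrays. Kcnk7, which has given no current on its own, averaged 0.17 ± 0.04 and was above 0 on 27. Kcnk1, the TWIK-1 channel, averaged −0.43 ± 0.05 (adjusted p = 9.88e-09) and was above 0 on 4 arrays.

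Kcnk3, the acid-sensitive TASK-1 channel, averaged −0.20 ± 0.05, with −0.04 to 0.44 on the 7 arrays and −0.69 to −0.08 on the other 16. Kcnk10, the TREK-2 channel, averaged −0.05 ± 0.05 and did not pass over all arrays. It was 0.34 on the 7 arrays (limma adjusted p = 0.0256), −0.08 on the 8 arrays (adjusted p = 0.0339) and −0.20 on the other 16 (adjusted p = 0.000735). Kcnk16, described as a pancreatic channel and measured at the eighth place, was below 0 on every array, from −1.86 in BXD15 to −0.18 in BXD11. Kcnk5, the alkaline-activated TASK-2 channel, had the widest spread of the class, from −0.54 in BXD12 over a median of −0.14 to 1.98 in BXD20. Its mean of 0.11 ± 0.10 did not pass, and its group means were 0.89 on the 7 arrays, 0.26 on the 8 arrays and −0.30 on the other 16. On the other 16 arrays alone Kcnk5 was negative by limma (adjusted p = 5.02e-06), and on the 7 arrays positive (adjusted p = 0.00781).

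In the calcium-activated families 4 of 6 genes were positive and 1 negative (83.3% called, beside 76.1% of all features). Beyond 1.2-fold 1 negative gene passed (16.7%, beside 27.9% of all features). The negative gene, Kcnn4, has its probe at the eighth place. Of the other 5 genes 4 were positive (80.0%), beside 46.7% of named genes with no probe there. Kcnma1, the pore of the big-conductance channel, averaged 0.30 ± 0.04 (SE, n = 31, limma adjusted p = 6.56e-08) and was above 0 on 27 arrays. Its values reached from −0.07 in BXD5 over a median of 0.31 to 0.88 in BXD11. Its probes had means of 0.47 and 0.13. Kcnu1, a relative known from sperm that responds to pH, averaged 0.36 ± 0.05 and was −0.23 to 0.25 on the 7 arrays against 0.26 to 0.73 on the other 16.

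The small-conductance genes encode the channels of the afterhyperpolarisation. Kcnn1 averaged 0.19 ± 0.04 (limma adjusted p = 8.53e-05) and was above 0 on 25 arrays. Kcnn2 averaged 0.18 ± 0.04 (adjusted p = 0.000349), but that mean came with array groups: it was 0.25 to 0.56 on the 7 arrays, 0.26 to 0.50 on the 8 and −0.26 to 0.20 on the other 16, where its mean was −0.02. Kcnn3 averaged 0.09 ± 0.08 and did not pass, with −0.80 to −0.25 on the 8 arrays (mean −0.58, limma adjusted p = 2.93e-05) and 0.01 to 0.73 on the other 16 (mean 0.40, adjusted p = 4.25e-06). Kcnn2 and Kcnn3, which can assemble with each other, thus stood on opposite sides of the other 16 on the 8 arrays. Kcnn4, the intermediate-conductance channel of blood cells and microglia, was below 0 on all arrays with a mean of −0.45 ± 0.05 and sits at the eighth place.

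Of the 15 auxiliary genes 3 were positive and 6 negative (60.0% called, beside 76.1% of all features). Beyond 1.2-fold 2 positive and 4 negative passed (40.0%, beside 27.9% of all features). The 2 genes at the eighth place were negative, and of the other 13 genes 3 were positive and 4 negative. For the beta subunits of the big-conductance channel, Kcnmb4, the neuronal form, averaged 0.42 ± 0.06 (SE, n = 31, limma adjusted p = 5.16e-08) and Kcnmb2, which causes inactivation, averaged 0.19 ± 0.04. Kcnmb4 ranged from −0.29 in BXD13 to 1.22 in BXD32, and Kcnmb2 was above 0 on all arrays except BXD8, at −0.74. Kcnmb1, the smooth muscle form at the eighth place, averaged −0.61 ± 0.05. Both brain beta subunits were therefore positive, as was the pore gene Kcnma1.

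The Shaker beta subunits Kcnab2 and Kcnab3 were negative, at −0.21 ± 0.05 (limma adjusted p = 0.000429) and −0.43 ± 0.07 (adjusted p = 8.48e-07), and Kcnab1 at −0.03 ± 0.05 did not pass. Among the calcium-binding partners of the A-type channels, Kcnip3, which also acts as the transcriptional repressor DREAM, averaged −0.65 ± 0.09 (adjusted p = 2.06e-07). Its values ran from −1.67 in BXD12 over a median of −0.72 to 0.47 in BXD32 and spread more within the array groups than those of any other channel gene (pooled SD 0.54). Kcnip1, Kcnip2 and Kcnip4 did not pass, with means of −0.05, 0.03 and 0.04. Kcnip1 was 0.17 on the 7 arrays (limma adjusted p = 0.0298), 0.12 on the 8 arrays (adjusted p = 0.0207) and −0.24 on the other 16 (adjusted p = 0.00157). Kcnip2 alone spanned −1.04 in BXD13 to 0.83 in BXD38.

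The single-span Kcne subunits were mixed. Kcne4, which inhibits several voltage-gated channels, averaged 0.46 ± 0.06 (limma adjusted p = 3.84e-08) and was above 0 on 28 arrays, with its highest values in BXD39 at 1.13 and BXD27 at 1.10. Kcne2, abundant in choroid plexus and stomach, averaged −0.18 ± 0.03 (adjusted p = 2.67e-06). Kcne3, at the eighth place, was below 0 on all arrays with a mean of −0.95 ± 0.08, from −0.54 to −0.06 on the 7 arrays and −1.68 to −0.63 on the other 16. Kcne1, the partner of Kcnq1, averaged 0.06 ± 0.03 (adjusted p = 0.0507) and Kcne1l 0.05 ± 0.08 (adjusted p = 0.524), and neither passed. Kcne1l was −1.67 in BXD20 and at least −0.38 elsewhere.

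The same sign on all 31 arrays was found for Kcnh3 above 0, and Kcna6, Kcnh5, Kcnq1, Kcne3, Kcnk16 and Kcnn4 below it, 7 of 63 channel genes beside 9.96% of named genes. Of the 6 below 0, all except Kcnh5 have a probe at the eighth place. For Kcnh3 and Kcnq1 the shared sign holds for the average over probes and not for each probe.

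The spread of the channel genes between arrays was near that of other genes. The median SD within the array groups was 0.22 for the 63 channel genes and 0.21 for all named genes, and over all 31 arrays it was 0.30 and 0.27. A median of 38.6% of the variance of a channel gene lay between the array groups, against 33.9% for named genes. The share was 0.13% for Kcnk4, 9.32% for Kcns1, 80.0% for Kcnj5 and 83.4% for Kcne3. The 7 arrays and the other 16 did not overlap in 9 channel genes, beside 8.52% of named genes. Kcna7 and Kcnu1 were lower on the 7 arrays, and Kcne3, Kcng4, Kcnj5, Kcnj8, Kcnj9, Kcnk3 and Kcnn2 higher. The 8 arrays and the other 16 did not overlap in 5 channel genes, beside 4.16% of named genes, with Kcna6, Kcnj2 and Kcnn2 higher and Kcnn3 and Kcnq1 lower on the 8 arrays. For Kcnq1 most of this lay in the probe at the eighth place, with means of −2.38 on the 8 arrays and −1.29 on the other 16. Its other probes had 0.04 and 0.18, and −0.31 and −0.21. Tested by limma within each group, 10 of the 63 channel genes passed with opposite signs in different groups (Kcna1, Kcna2, Kcna7, Kcnj2, Kcnj4, Kcnj5, Kcnk5, Kcnk10, Kcnn3 and Kcnip1), beside 11.3% of named genes, and of these only Kcnj4 passed over all 31 arrays.

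**Figure D3:**
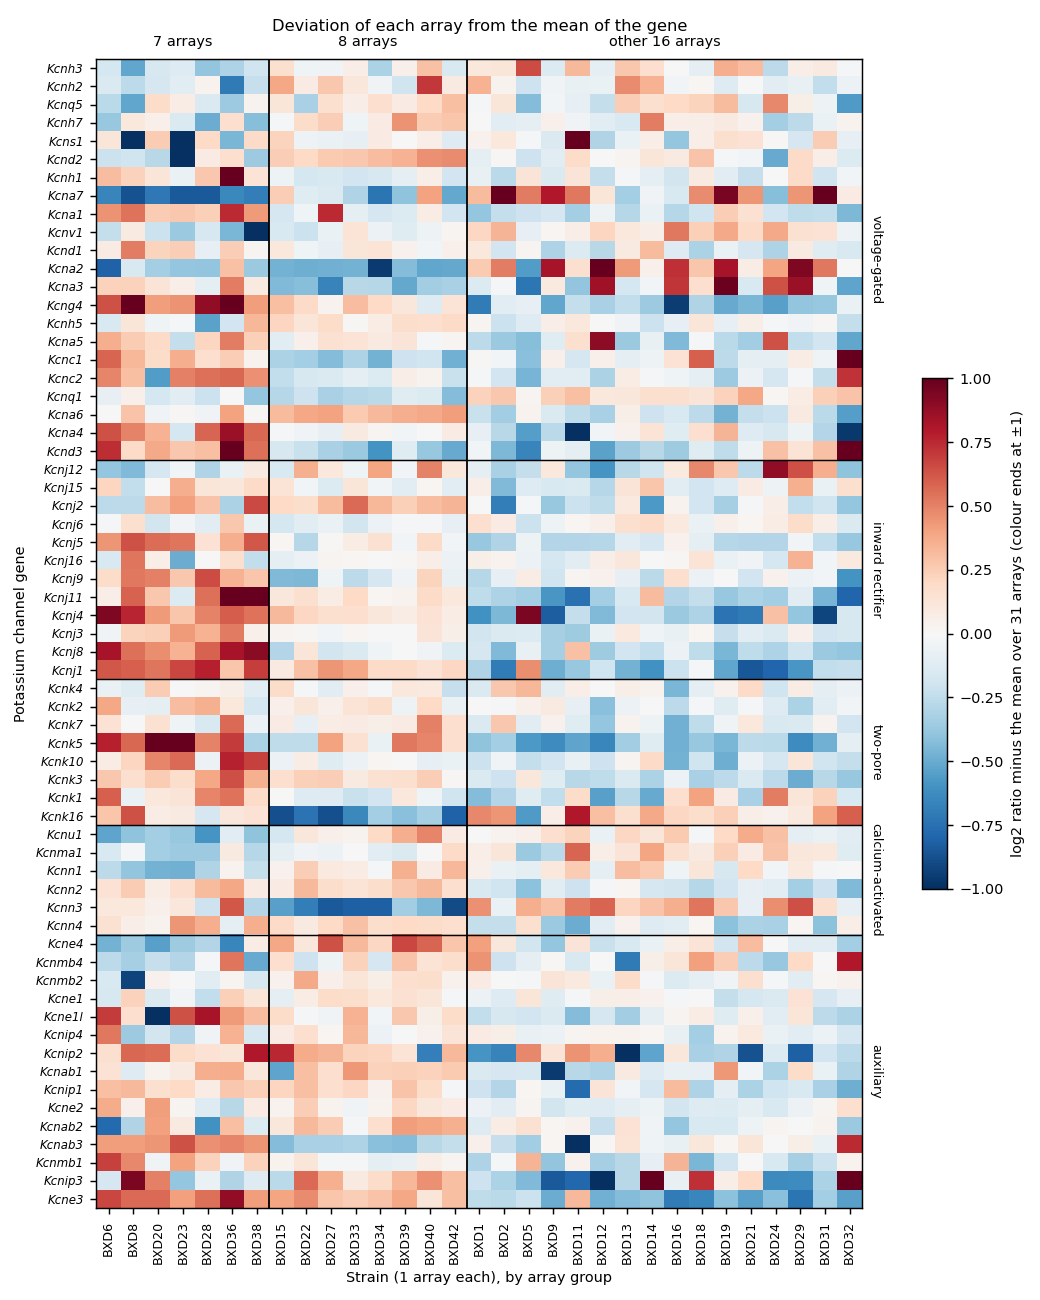
Deviation of each array from the gene's mean over 31 arrays, in log2 units, for the 63 potassium channel genes by class (rows) and the 31 strains (columns), with the 7 arrays, the 8 arrays and the other 16 from left to right; colour ends at deviations of 1 in either direction. Kcnj8, Kcnj1 and Kcne3 are red on the 7 arrays, Kcnn3 is blue on the 8 arrays, and BXD32 and BXD36 hold many of the strongest colours.

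Single arrays held many of the extremes. BXD36 had the highest value of 12 of the 63 channel genes and the lowest of 3, and 44 of the genes were above 0 there. BXD32 had the highest of 6 and the lowest of 7. The median channel gene was 0.22 on BXD36 and 0.04 or less on every other array. The lowest was −0.24 on BXD1, where the median of all named genes was 0.02.

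Several channel genes were measured by more than 1 probe, which gives a check of whether strain differences repeat. Over the other 16 arrays, the 10 pairs of probes for 1 gene had a median Pearson r of 0.02. None passed after Benjamini-Hochberg adjustment of two-sided permutation p-values, and 1 had an unadjusted p under 0.05. That was the pair of Kcnq1 probes 6295 and 12160, with r = −0.62 (p = 0.011, adjusted p = 0.11, n = 16) and rho = −0.51 (adjusted p = 0.448). Without the 2 farthest arrays r was −0.18. The pair of Kcnk4 probes, designed on the same transcript, had r = 0.19 and adjusted p = 0.905. These 2 Kcnk4 probes had close means over the arrays, as given above. The Kcnh3 probes averaged 0.25 ± 0.03 and 1.01 ± 0.08, and the Kcnd1 probes 0.19 ± 0.04 and −0.17 ± 0.05.

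**Figure D4:**
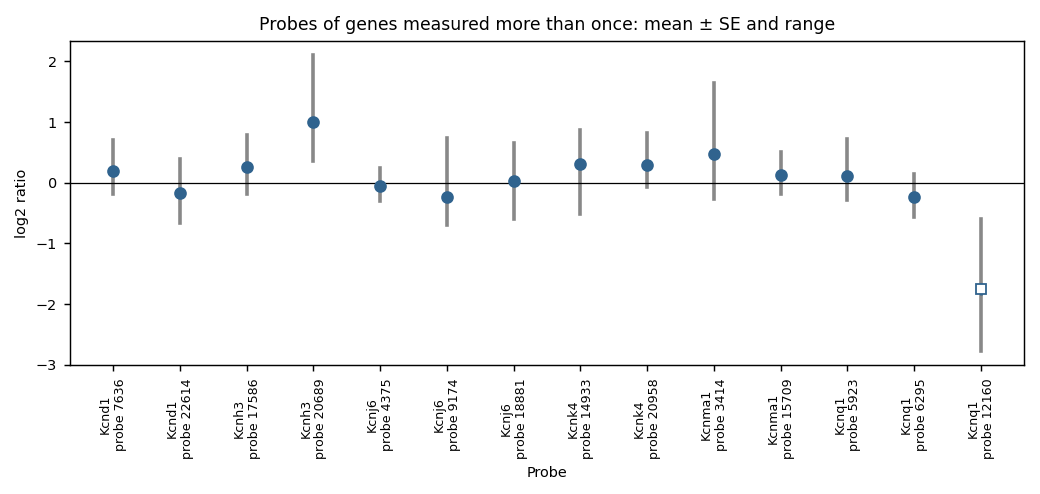
Mean log2 ratio of each of the 14 probes of the 6 potassium channel genes measured more than once, with the range over 31 arrays as a grey line and the standard error hidden by the marker where small. The probes of Kcnk4 have like means, those of Kcnh3, Kcnd1 and Kcnma1 do not, and the Kcnq1 probe at the eighth place (open square) averages −1.75.

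Neighbouring channel genes mostly share a parental allele in such strains, and 11 pairs lay within 10 places of each other. Over the other 16 arrays their median r was 0.13, and 1 pair passed. Kcna2 and Kcna3, 3 places apart on chromosome 3, had r = 0.83 (permutation p = 8e-05, adjusted p = 0.00088, n = 16) and rho = 0.80 (adjusted p = 0.00363). Without the 2 farthest arrays r was 0.76, and with each array left out in turn it stayed between 0.79 and 0.87. In the 7 arrays r was 0.60 and in the 8 arrays −0.44. Both genes were high in BXD12, BXD16, BXD19 and BXD29, and both low in BXD5.

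Both also followed the third principal component of all features (6.26% of variance) over the other 16 arrays, with r of 0.78 for Kcna2 and 0.89 for Kcna3. With the first 3 components removed, the pair's r was 0.05 (permutation adjusted p = 0.855, n = 31). With the mean of each array group subtracted instead, the pair's r over the 31 arrays was 0.73 and passed (permutation adjusted p = 0.00033). The 4 other measured neighbours of Kcna2 and 5 of Kcna3 within 10 places, examined after this pair was seen, gave no pair that passed by r, and the largest in size was Kcna3 with Cd53 at r = −0.59 (adjusted p = 0.083). Ranks gave rho = −0.64 (adjusted p = 0.0439) for that pair. The other neighbouring channel pairs, such as Kcna1 with Kcna6 at r = −0.18 and Kcnj15 with Kcnj6 at r = 0.35, did not pass.

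Of 22 pairs of subunits known to assemble, 1 passed over the other 16 arrays, and the median r was 0.09. Kcnc1 and Kcnc2 had r = 0.82 (permutation p = 0.00192, adjusted p = 0.0422, n = 16), while rho was 0.47 (adjusted p = 0.414). Within these 16 arrays its call rests on BXD32, where both genes were highest: without that array r was 0.46 (permutation p = 0.0883, n = 15), and without the 2 farthest arrays it was 0.61. In the 8 arrays, which do not include BXD32, r was 0.72, and in the 7 arrays 0.20. With the first 3 components removed, r over all 31 arrays was 0.59 and passed (permutation adjusted p = 0.0177), and with group means subtracted it was 0.61 (adjusted p = 0.0528). Kcnj3 with Kcnj5 at r = 0.61 (adjusted p = 0.153) and Kcna1 with Kcna4 at r = 0.57 (adjusted p = 0.157) had unadjusted p under 0.05 only. The GIRK subunits of brain showed no relation that passed, with r = 0.07 for Kcnj3 with Kcnj9, 0.12 for Kcnj6 with Kcnj9 and 0.35 for Kcnj3 with Kcnj6. The pairs of Kcnma1 with its beta subunits had r of −0.22 for Kcnmb4 and −0.07 for Kcnmb2.

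**Figure D5:**
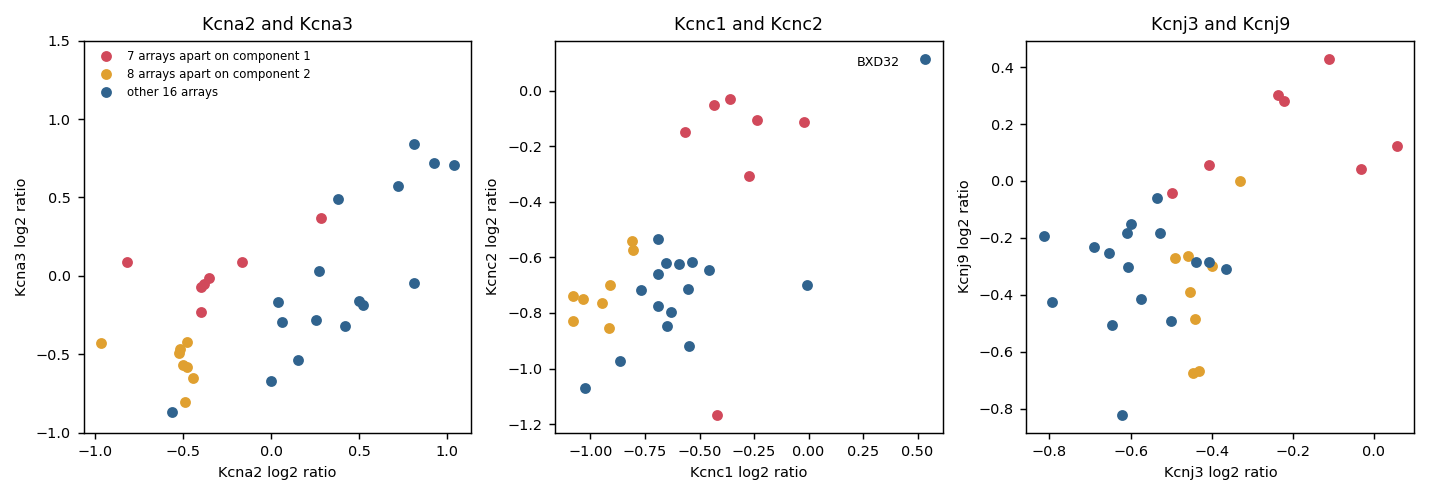
Log2 ratios of 3 pairs of potassium channel genes on the 31 arrays, 1 dot per strain, coloured by array group in the order 7, 8 and other 16 arrays. Kcna2 and Kcna3 rise together in the other 16 arrays (r = 0.83), Kcnc1 and Kcnc2 have r = 0.82 with BXD32 at the upper right and 0.46 without it, and Kcnj3 and Kcnj9 have r = 0.07 there.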

How the data were processed

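The authors deposited 1 log ratio per spot and array, taken as log2; scale, centring and direction are not stated, and the median was 0.01 on every array. Sorted values were identical across the 31 arrays, with a largest difference of 0, as quantile normalisation between arrays leaves them. R 2.0.0 and limma are named per the submitters' processing notes; how spots were corrected for background or filtered is not stated in those sources.

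Probes of a gene were averaged and spots without a single symbol kept, which gave 21262 features. Means were tested against 0, and beyond 1.2-fold with treat, in limma 3.58.1 (R 4.3.3), two-sided, with Benjamini-Hochberg adjustment over all features at 0.05. Correlations were computed over the 16 arrays outside the apart groups, with 1e+05 permutations, adjusted within each family. Promoters and gene order came from RefSeq (GRCm38.p6).

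The rule for named genes took, per class, the 3 highest and 3 lowest means and the 2 largest spreads within array groups, besides the GIRK genes, every pair member and all genes with several probes, and of the partner list the 3 highest and lowest; other channel genes are named to account for every member. Members and lists were chosen with earlier results of these data known. Alternatives were other centring, probe and array choices, robust fits and leaving out each array.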

Additional observations from a re-analysis of the deposited data

How the results depend on the processing

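Leaving out each array in turn gave 19 to 20 positive and 27 to 28 negative channel genes against 0, and 7 to 8 positive and 18 to 19 negative beyond 1.2-fold. Without probes at the eighth place, 52 channel genes were left, with 16 negative against 0 and 9 beyond 1.2-fold, in place of 27 and 19. Over all 18875 features left, 5254 were negative and 1864 negative beyond 1.2-fold, in place of 7216 and 3308 of 21262. In this setting 10 of 35 partner genes were negative in place of 19. Centring on named spots outside that place left 4 positive channel genes beyond 1.2-fold in place of 7. Over all features it left 1992 positive beyond 1.2-fold in place of 2630. With the first 3 components removed, 0 neighbouring pairs and 2 co-assembling pairs passed in place of 1 each. These 2 were Kcnc1 with Kcnc2, and Kcna2 with Kcnab2. For Kcna2 with Kcnab2 r was then 0.55 (permutation adjusted p = 0.0177), against −0.25 over the other 16 arrays (adjusted p = 0.734). With the mean of each array group subtracted 1 neighbouring pair and 0 co-assembling pairs passed. Signs of single means also turned. In only the 16 arrays outside the apart groups this held for Kcna1 (−0.12), Kcna2 (0.40), Kcnk5 (−0.30), Kcnn2 (−0.017), Kcnd1 (−0.088), Kcne1l (−0.090) and Kcnip2 (−0.24), and without the 7 arrays for Kcna1 (−0.056), Kcna2 (0.080), Kcnd1 (−0.043), Kcne1l (−0.0019), Kcnip2 (−0.079) and Kcnk5 (−0.12). With array group as a term it held for Kcna7 (−0.10), Kcnab1 (0.022), Kcnip1 (0.019), Kcnj2 (0.030) and Kcnn3 (−0.0065). Centring on named spots turned Kcnd1 (−0.044), Kcnip2 (−0.026) and Kcnip4 (−0.011), centring on all spots Kcnd1 (−0.0038), and the first probe alone Kcnq1 (0.10). Of these genes Kcnn2 and Kcnq1 had passed over the 31 arrays. The cause was not tested. Of the 58 named genes, 48 kept sign and call with array group as a term, 51 with centring on named spots and 42 in only the 16 arrays. No paired analysis was possible because all strain pools form 1 group against the same C57BL/6J RNA. Precision is limited by the 31 arrays, and spot brightness was not analysed here.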

Other observations

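Proteins that assemble with, cluster or gate potassium channels without a Kcn symbol were followed as a list, of which 45 of 55 were measured. Of these 18 were positive and 19 negative by limma (82.2% called, beside 76.1% of all features), with a median mean of −0.02. The shares were 40.0% positive and 42.2% negative, beside 42.1% and 33.9% of all features. Without probes at the eighth place 35 partner genes were left, 18 positive and 10 negative, beside 8816 positive and 5254 negative of 18875 features. The highest means were those of Vapa, a protein of membrane contact sites, at 0.58 ± 0.11 (SE, n = 31), of Calm2, a calmodulin gene, at 0.48 ± 0.08 and of Gng3, a G-protein gamma subunit, at 0.47 ± 0.07. The lowest were those of Dpp6, an A-type channel partner, at −1.18 ± 0.09, of Abcc9, the vascular sulfonylurea receptor that pairs with Kcnj8, at −1.04 ± 0.14 and of the pacemaker channel Hcn4 at −0.90 ± 0.07. Of these 6, Calm2 among the highest and Dpp6 and Abcc9 among the lowest have a probe at the eighth place.

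Cell type markers gave the following counts over the 31 arrays, as positive and negative calls by limma. Among all features 42.1% were positive and 33.9% negative. Neuron markers had 1 and 2 of 4, astrocyte markers 1 and 3 of 5, and oligodendrocyte markers 3 and 0 of 4. Microglia markers had 2 and 2 of 4, endothelial markers 4 and 0 of 4, and choroid plexus markers 2 and 2 of 4. Pituitary markers had 1 and 1 of 5, and blood markers 0 and 2 of 3. The negative microglia markers, Cx3cr1 and P2ry12, and the negative pituitary marker, Fshb, have a probe at the eighth place. Of named genes measured only at that place, 79.7% were negative.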
